A study of Mus musculus with 10 samples.

Results

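The hair keratins and the keratin-associated proteins are the structural proteins of the hair shaft. They were taken here by gene name: every row of the gene table whose symbol was Krt31 to Krt40 or Krt81 to Krt87, with or without a letter a or b, or was Krtap followed by a digit. The names matched 73 rows, and 56 of them had at least 1 count in some library, out of 31017 genes with any count and 55421 rows in all. The 56 genes were 15 hair keratins, all 15 of those in the table, and 41 of 58 Krtap genes. No row was named Krt85, so that type II hair keratin is not covered here. The other 17 rows, all Krtap genes, had no count in any library and carry no measurement.

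RNA was measured in ulcer tissue of mice by sequencing, in 10 libraries. All 10 came from the diabetic ulcer model of the study, in which obese diabetic db/db mice had skin removed surgically, so no library comes from a mouse without diabetes or from unwounded skin. In 5 libraries the labels give the treatment as saline, and in the other 5 as saline with Fu Huang ointment, and administration lasted 7 days. The sources used here give no age and no sex, and leave unsaid whether every library is a different mouse, so p-values measure only the spread between these libraries, which may be partly technical. The comparison asks which transcripts differed in the ulcer tissue with the ointment.

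A hair shaft forms in an anagen follicle, the growing phase, from matrix cells around the dermal papilla. As these cells move up they become cuticle, cortex and medulla, switch on type I (acidic) and type II (basic) hair keratins, which pair into filaments, and then make keratin-associated proteins that cross-link the filaments through disulfide bonds. The inner root sheath, which surrounds and shapes the shaft, has keratins of its own. Since the shaft genes are made almost nowhere else in skin, they mark the differentiating part of growing follicles.

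The promoters of 6 genes are shown because their genes differ in the measurements that follow. Krt31, Krt34, Krtap8-1 and Krtap11-1 were nearly or wholly without counts in the ointment libraries, Krt84 was the gene called lower by the main test, and Krtap3-2 was present in all 10 libraries. Each line holds the 250 bases before the annotated start, from RefSeq on GRCm38.p6, 5′ to 3′ on the gene's strand. Capitals mark matches on either strand to 4 motifs. The TATA box was searched as TATAAA. The core of sites for Lef1 and its Tcf relatives was searched as CTTTGAA, that of Hoxc13 sites as TTTATNG and that of Foxn1 sites as GACGC.
Krt31 (chr11:100050552-100050801, minus strand): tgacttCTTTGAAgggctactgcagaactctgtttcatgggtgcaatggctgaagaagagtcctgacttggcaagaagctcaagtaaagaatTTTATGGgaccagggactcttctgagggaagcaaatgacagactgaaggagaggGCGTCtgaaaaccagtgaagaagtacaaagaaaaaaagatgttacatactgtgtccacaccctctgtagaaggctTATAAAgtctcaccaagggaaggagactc
Krt34 (chr11:100041555-100041804, minus strand): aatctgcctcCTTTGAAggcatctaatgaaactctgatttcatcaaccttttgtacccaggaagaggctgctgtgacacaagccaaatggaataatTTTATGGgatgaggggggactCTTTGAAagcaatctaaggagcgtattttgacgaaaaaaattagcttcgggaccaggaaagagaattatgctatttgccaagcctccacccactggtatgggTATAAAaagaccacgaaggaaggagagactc
Krtap8-1 (chr16:89487953-89488202, minus strand): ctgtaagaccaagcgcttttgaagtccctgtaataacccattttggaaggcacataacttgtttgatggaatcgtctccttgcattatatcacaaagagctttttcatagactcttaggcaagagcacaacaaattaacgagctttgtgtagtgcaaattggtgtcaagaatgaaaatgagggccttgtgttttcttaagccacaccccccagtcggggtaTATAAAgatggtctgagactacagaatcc
Krtap11-1 (chr16:89571184-89571433, minus strand): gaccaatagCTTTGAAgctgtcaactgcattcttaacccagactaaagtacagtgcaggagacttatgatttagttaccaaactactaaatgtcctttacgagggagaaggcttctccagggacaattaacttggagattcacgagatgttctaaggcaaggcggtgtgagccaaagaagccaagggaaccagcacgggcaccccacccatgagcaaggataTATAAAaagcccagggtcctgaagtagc
Krt84 (chr15:101532821-101533070, minus strand): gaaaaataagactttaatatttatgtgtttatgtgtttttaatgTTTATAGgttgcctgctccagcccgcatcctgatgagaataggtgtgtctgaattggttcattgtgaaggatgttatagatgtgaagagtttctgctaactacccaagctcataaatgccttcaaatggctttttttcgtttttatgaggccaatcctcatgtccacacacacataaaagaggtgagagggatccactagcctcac
Krtap3-2 (chr11:99556854-99557103, minus strand): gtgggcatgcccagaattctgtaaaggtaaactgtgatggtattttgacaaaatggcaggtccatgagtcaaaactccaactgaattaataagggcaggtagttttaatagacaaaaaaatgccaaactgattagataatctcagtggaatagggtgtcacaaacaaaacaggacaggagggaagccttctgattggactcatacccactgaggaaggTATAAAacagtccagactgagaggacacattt

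A TATA box on the gene's strand lies 29 bases before the start of Krt31 and of Krtap8-1, 31 before Krt34, 28 before Krtap11-1 and 32 before Krtap3-2. Krt84 has no such match near its start; its capitals are a Hoxc13 core whose first bases are also the TATA box read on the other strand. Of the 56 genes, 44 had a promoter in the RefSeq table, each 300 bases long with 250 before and 50 after the start. A TATA box on the gene's strand between 15 and 45 bases before the start was found in 29 of the 44 (65.9%), against 2.25% of all 32851 promoters in the table. It was found in 25 of 35 Krtap promoters (71.4%) and in 4 of 9 hair keratin promoters (44.4%). The Lef1/Tcf core was found in 11 of 44 (25%), against 5.13% of all promoters, with 5 of 9 hair keratins (55.6%) and 6 of 35 Krtap genes (17.1%). The Hoxc13 core was found in 10 of 44 (22.7%), against 10.9%; it can overlap the TATA box on the other strand, and without matches spelled TTTATAG it was found in 7 (15.9%), against 7.61%. The Foxn1 core was found in 3 of 44 (6.82%), against 27.2% of all promoters. The Krtap genes are tandem families with shared ancestry, so their promoters are not independent of one another, and a match is a string of letters and not a bound site. The promoters were not matched in base composition, and its part in these shares, higher or lower, was not tested.

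**Figure D1:**
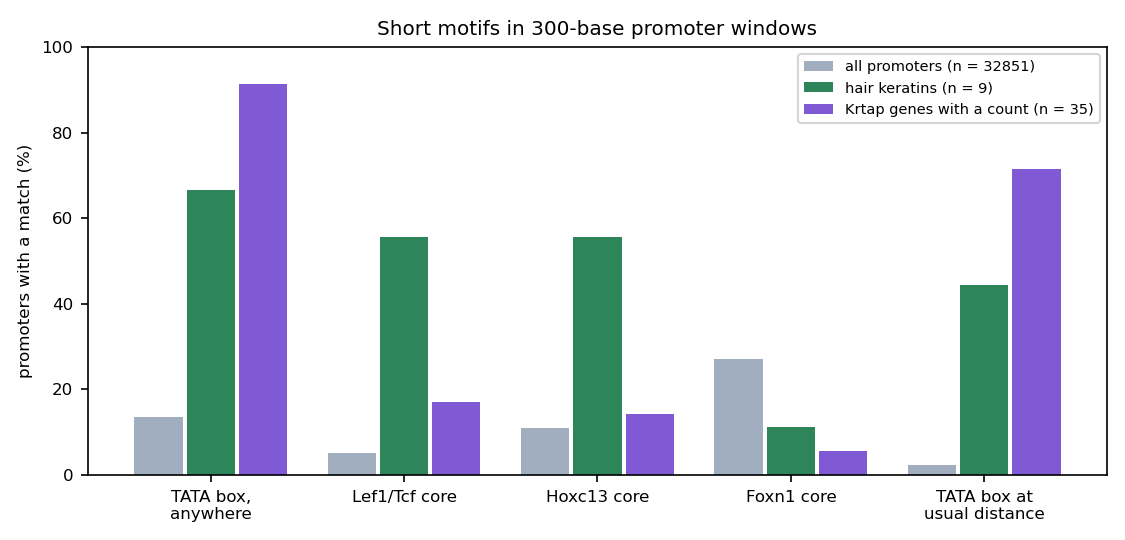
Share of promoters (percent, vertical axis) holding each motif (horizontal axis; the last position is the TATA box on the gene's strand near the start), for hair keratins, Krtap genes with any count and all 32851 promoters of the table. The TATA box near the start was found in 71.4% of Krtap promoters and 2.25% of all promoters.

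The 10 libraries held 58145331 to 62664018 counts with saline and 47807353 to 62896034 with ointment, and no pair of libraries was identical. Levels are given as CPM, the counts scaled to the size of each library with TMM factors, and the 56 genes took 0.000472 to 0.00703% of a library's counts, so all their levels are low. The deposited values were whole numbers with an excess of multiples of 4: 60 of the 125 values from 1 to 20 among these genes (48%) were multiples of 4, against 34.9% for all genes and 25% if all numbers were equally common. A value of 4, equal to 0.0633 to 0.0852 CPM, may therefore be the smallest unit for many genes. For genes at 0 in all 5 ointment libraries, a lower bound of the fold was computed from 12 counts over that group, which is 3 such units, a choice made after the step of 4 was seen. Bounds and counting intervals cover counting error only. The counting intervals treat each count as a separate event, so where the step of 4 holds they are too narrow even for that error. Of the whole table, 18509 genes passed the filter on low counts and were tested, and 310 were called at an adjusted p under 0.05 (1.67%), 182 lower with ointment (0.983%) and 128 higher (0.692%).

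Most of the shaft genes had counts in saline libraries only, and saline 5 resembled the ointment libraries in its low values. Counts occurred in saline libraries but in no ointment library for 33 of the 56 genes (58.9%), in both groups for 23, and in ointment libraries alone for 0. Over all 31017 genes with any count, 2529 were at 0 in every ointment library (8.15%) and 2372 at 0 in every saline library (7.65%). Summed over the 56 genes there were 10670 counts with saline and 1913 with ointment. Saline libraries 1 to 5 had counts for 42, 36, 46, 38 and 17 of the genes, and ointment libraries 1 to 5 for 10, 15, 8, 15 and 11.

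The saline libraries were far apart from each other. Their summed levels were 68.1, 33.6, 39.4, 25.4 and 8.21 CPM in libraries 1 to 5, a mean of 34.9 ± 21.9 (SD, n = 5). The ointment libraries stood at 7.10, 7.55, 4.91, 8.53 and 7.63 CPM, a mean of 7.14 ± 1.35 (SD, n = 5). Saline 1 to 4 lay above every ointment library, and saline 5 lay inside the ointment range. The 9 type I keratins summed to 42.4, 18.9, 17.5, 12.9 and 2.16 CPM with saline and to 3.2, 1.1, 1.14, 4.03 and 0.625 CPM with ointment. The 6 type II keratins summed to 9.5, 9.31, 10.3, 8.38 and 4.26 CPM with saline and to 2.43, 4.24, 2.18, 2.06 and 5.89 CPM with ointment. In both types saline 5 alone of the saline libraries lay within the ointment range. Of the 56 genes, 39 were at 0 in saline 5, and 30 of these were also at 0 in all ointment libraries. Among the 11 genes that were tested, saline 1 was the highest saline library for 8 and saline 5 the lowest for 8. In bulk tissue, fewer shaft-forming cells and less RNA per cell cannot be told apart, and the number of follicles in each tissue piece was not measured.

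**Figure D2:**
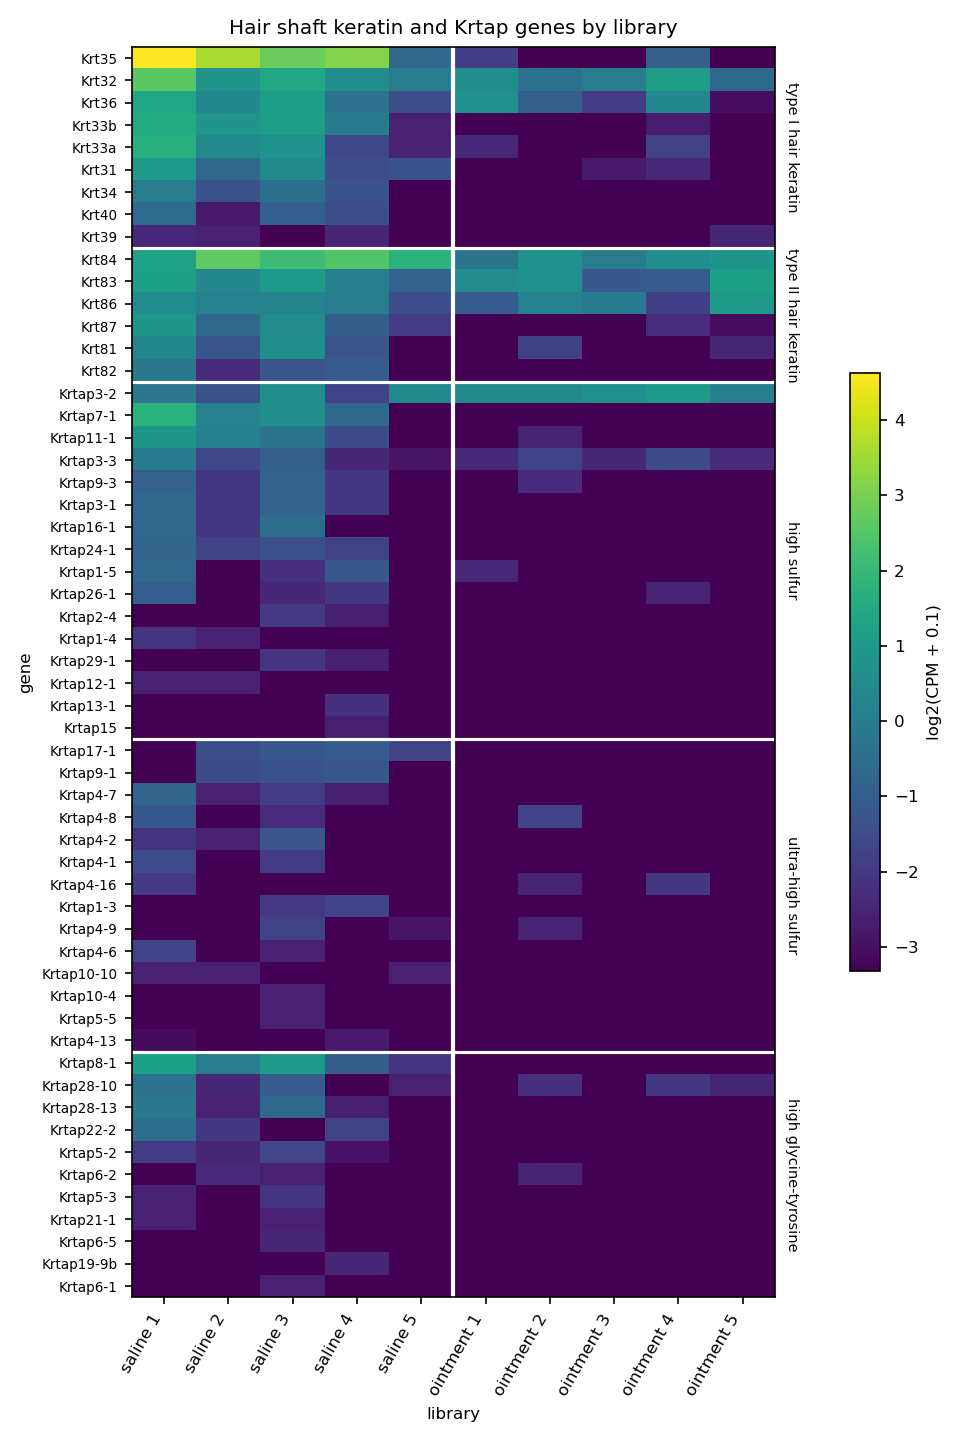
Level of each of the 56 genes (rows) in each of the 10 libraries (columns), as log2 of CPM plus 0.1. The ointment columns and the saline 5 column are mostly at the lowest shade, with 8 to 17 of 56 genes above 0, while saline 1 to 4 have 36 to 46.

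Of the 56 genes, 11 passed the filter: 9 keratins, Krtap3-2 and Krtap3-3. With the main test (edgeR's quasi-likelihood test, Benjamini-Hochberg adjustment over all 18509 genes) 1 was called lower with ointment, 0 were called higher and 10 were not called. The median log2 fold change of the 11, ointment against saline, was -1.15, beside -0.00252 for all genes tested, and 10 of 11 values were negative, beside 50.3% of all genes. An unadjusted p under 0.05 with a negative value was seen for 5 of 11 (Krt35, Krt31, Krt33a, Krt81 and Krt84), beside 8.56% of all genes. The groups did not overlap for 3 of the 11, all with saline higher, beside 3.44% of all genes tested; 0 had ointment higher, beside 3.11%. A gene could pass the filter through its saline level alone, so these 11 do not stand for the 56. DESeq2's Wald test called 4 of the 11 lower, Krt31, Krt33a, Krt35 and Krt84, beside 4.34% of all genes. Krt84 was also the gene called lower by voom, of 11 tested (all genes 1.11%), and of 6 tested after the values were divided by 4 (all genes 1.24%). The count also changed when a library was left out, and the filter was then applied anew. Without saline 5 the main test called 6 of 18 genes lower (Krt33b, Krt34, Krt35, Krtap24-1, Krtap7-1 and Krtap8-1), beside 0.925% of all genes. Of these 6, Krt35 alone was among the 11 tested with all libraries. Without ointment 4 it called 4 of 19 (Krt31, Krt35, Krt87 and Krtap8-1), beside 1.18% of all genes. Krt87 and Krtap8-1 were not among the 11. Without saline 1 it called 2 of 12 (Krt84 and Krtap17-1, the latter not among the 11), beside 0.476% of all genes. Without any other single library it called 0, with 11 or 19 shaft genes tested.

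**Figure D3:**
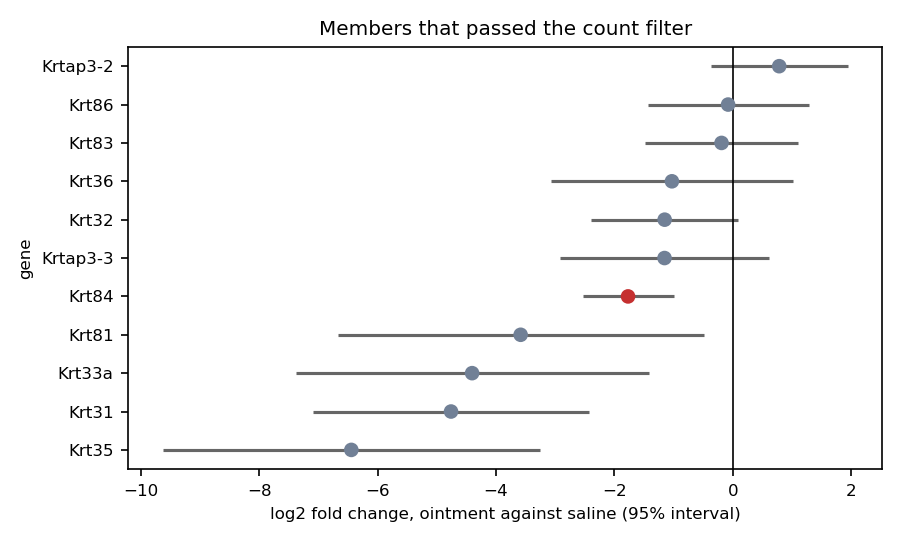
Log2 fold change, ointment against saline, of the 11 tested genes from edgeR, with 95% confidence intervals. Krt84 has an interval of -2.54 to -1.0 and is the gene past the threshold, the intervals of Krt35 and Krt31 are lower but wider, and Krt83, Krt86 and Krtap3-2 lie around 0.

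Krt35 is the type I hair keratin that comes on first, in the matrix and the lower cortex and cuticle (ENSMUSG00000048013, chromosome 11, 100092193 to 100096241, minus strand). It was the most abundant of the 56 genes with saline. Its level in saline 1 to 5 was 24.6, 12.1, 6.89, 8.79 and 0.545 CPM, and in ointment 1 to 5 it was 0.170, 0, 0, 0.430 and 0 CPM. Every saline library lay above every ointment library, although saline 5 exceeded ointment 4 only narrowly. The means were 10.6 ± 8.89 and 0.120 ± 0.188 CPM (SD, n = 5 each). The log2 fold change was -6.44 (SE 1.43, 95% interval -9.63 to -3.25), and edgeR's adjusted p of 0.0578 was just above the threshold. DESeq2 gave an adjusted p of 2.39e-05 and voom one of 0.203.

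The type I keratins of the cortex, Krt31, Krt33a, Krt33b and Krt34, were all low with ointment. They lie side by side on chromosome 11 and share sequence: between 24.2% (Krt33b) and 33.1% (Krt34) of the 50-base stretches of the 3 genes Krt31, Krt33b and Krt34 also occur in another gene, so reads could be split between them. Krt31 was at 1.81, 0.531, 1.27, 0.269 and 0.297 CPM in saline 1 to 5, and at 0, 0, 0.0495, 0.0896 and 0 CPM in ointment 1 to 5. The groups did not overlap, and the log2 fold change was -4.76 (SE 1.04, edgeR adjusted p 0.0558). Krt33a was at 3.03, 1.29, 1.55, 0.221 and 0.0661 CPM with saline and at 0.0852, 0, 0, 0.197 and 0 CPM with ointment. Here saline 5 fell within the ointment range, and the log2 fold change was -4.40 (SE 1.34, edgeR adjusted p 0.128).

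Krt33b did not pass the filter. Its levels were 2.90, 1.66, 2.10, 0.854 and 0.0661 CPM with saline and 0, 0, 0, 0.0537 and 0 CPM with ointment. The groups did not overlap, but only narrowly, with 4 counts in saline 5 against 3 in ointment 4, a gap smaller than the step of 4. With only 3 ointment counts the ratio of pooled levels was 135, with a counting interval of 46.1 to 659. When every gene with a count was tested, with no filter, Krt33b was called lower (log2 fold change -6.85, SE 1.27, edgeR adjusted p 0.0426), as was Krtap8-1, and these 2 of 56 stand beside 0.409% of 31017 genes. Krt34 was at 0.915, 0.289, 0.628, 0.301 and 0 CPM with saline and at 0 in every ointment library. Its pooled saline level was at least 9.53-fold higher, and saline 5 was at 0 like the ointment libraries.

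Of the type II keratins of the cortex, Krt87 had groups that did not overlap but was not tested, and Krt81, Krt83 and Krt86 had overlapping groups and were not called. Differences between these genes in their response were not tested. All 4 share sequence, with 22.1% (Krt83) to 43.3% (Krt86) of their 50-base stretches found in another gene, so the levels of single genes among them are uncertain. Krt81 stood at 1.17, 0.322, 1.45, 0.316 and 0 CPM with saline and at 0, 0.187, 0, 0 and 0.0757 CPM with ointment. The log2 fold change was -3.58 (SE 1.39, edgeR adjusted p 0.22). Krt87, which was not tested, stood at 1.73, 0.563, 1.34, 0.411 and 0.165 CPM with saline and at 0, 0, 0, 0.107 and 0.0189 CPM with ointment. For Krt81 saline 5 lay below ointment 2 and 5, whereas for Krt87 the groups did not overlap and the pooled ratio was 32.2 (counting interval 15.4 to 80.8).

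Krt83 was at 2.18, 1.19, 1.82, 0.949 and 0.463 CPM with saline and at 1.32, 1.49, 0.363, 0.394 and 2.21 CPM with ointment. The groups overlapped over most of their range, and the log2 fold change of -0.19 (95% interval -1.48 to 1.10, edgeR adjusted p 0.92) became 0.051, 0.039 and 0.038 without saline 1, ointment 3 and ointment 4. Krt86 was at 1.35, 0.997, 1.07, 0.902 and 0.264 CPM with saline and at 0.384, 1.01, 0.892, 0.179 and 1.87 CPM with ointment. Its log2 fold change was -0.080 (95% interval -1.44 to 1.28, edgeR adjusted p 0.971), again with overlapping groups, and it became 0.084, 0.11 and 0.19 without saline 1, ointment 1 and ointment 4. Both intervals leave room for a change of more than 2-fold in either direction.

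Of the cuticle keratins, Krt32 was present in all 10 libraries, Krt82 and Krt40 had counts in saline libraries only, and Krt39 was near the limit of detection in both groups. Krt32, a type I cuticle keratin, was at 5.88, 1.64, 2.58, 1.38 and 0.925 CPM with saline and at 1.41, 0.673, 0.925, 2.04 and 0.530 CPM with ointment. The groups overlapped and the log2 fold change was -1.15 (SE 0.56, 95% interval -2.40 to 0.09, edgeR adjusted p 0.332); an annotated gene on the opposite strand overlaps its exons, and without strand information their reads cannot be told apart. Krt82, the type II cuticle keratin, was at 0.832, 0.0965, 0.331, 0.395 and 0 CPM with saline and at 0 in all 5 ointment libraries, at least 7.40-fold higher with saline. Krt40, a late type I cuticle keratin, was at 0.583, 0.0482, 0.413, 0.269 and 0 CPM with saline and at 0 with ointment, at least 5.86-fold higher. In saline 5 both were at 0, as in the ointment libraries. Krt39 had 14 counts with saline and 4 with ointment, too few for a comparison.

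Krt36 and Krt84 are hard keratins that are also made outside hair, in the tongue and, for Krt36, the nail. Krt84 (ENSMUSG00000044294, chromosome 15, 101525026 to 101532820, minus strand) was the 1 gene called lower by the main test. Its level in saline 1 to 5 was 2.25, 6.14, 4.28, 5.41 and 3.37 CPM, and in ointment 1 to 5 it was 0.724, 1.55, 0.925, 1.38 and 1.70 CPM. The groups did not overlap, and unlike for Krt35 the lowest saline library was saline 1 and not saline 5. The means were 4.29 ± 1.56 and 1.26 ± 0.417 CPM (SD, n = 5 each), a 3.41-fold difference (log2 fold change -1.77, SE 0.35, edgeR adjusted p 0.0349). The call was lost in 9 of 10 fits that left out a library, where adjusted p ran from 0.0514 to 0.0939, and was kept without saline 1 (0.0436). It was also lost with no filter (0.0515). Krt36 was at 2.61, 1.22, 2.05, 0.712 and 0.264 CPM with saline and at 1.53, 0.430, 0.165, 1.22 and 0.0189 CPM with ointment. Its groups overlapped, with a log2 fold change of -1.03 (SE 0.92, 95% interval -3.07 to 1.02, edgeR adjusted p 0.649).

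The keratin-associated proteins are grouped by composition: high sulfur and ultra-high sulfur proteins are rich in cysteine, and high glycine-tyrosine proteins in those residues. By translated sequence, the 41 genes with a count were 16 high sulfur, 14 ultra-high sulfur (cysteine at least 30%) and 11 high glycine-tyrosine genes (those residues at least 35%). The high sulfur class took every gene that met neither cutoff. It had no minimum of cysteine, so not all its proteins are rich in it (Krtap15 has 4%). Counts in saline alone were seen for 10 of 16, 11 of 14 and 9 of 11. Krtap7-1, often grouped with the glycine-tyrosine proteins, fell in the high sulfur class at 29.9% of those residues, and 4 genes met both cutoffs and were placed in the glycine-tyrosine class. Nearly all the genes, 40 of 41, have a single exon.

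In each class of keratin-associated genes, the summed level of saline 1 to 4 lay above that of every ointment library. High glycine-tyrosine genes summed to 4.59, 1.40, 3.41, 0.775 and 0.198 CPM with saline and to 0, 0.187, 0, 0.143 and 0.0757 CPM with ointment. Ultra-high sulfur genes summed to 1.68, 0.723, 1.95, 1.04 and 0.297 CPM with saline and to 0, 0.355, 0, 0.143 and 0 CPM with ointment. High sulfur genes summed to 9.87, 3.33, 6.28, 2.36 and 1.29 CPM with saline and to 1.47, 1.66, 1.59, 2.15 and 1.04 CPM with ointment. For the first class every saline library lay above every ointment library, although saline 5 exceeded ointment 2 only narrowly (0.198 against 0.187 CPM). For the other 2 classes, saline 5 lay within the ointment range.

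**Figure D4:**
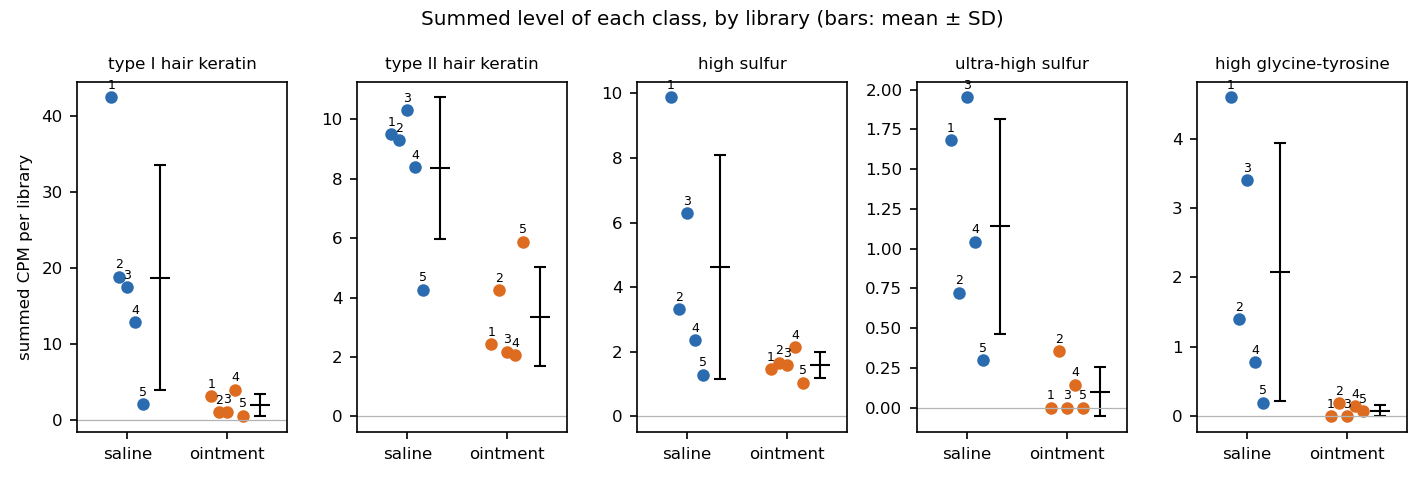
Summed level (CPM, vertical axis) of each class of shaft genes in each library, with the mean and SD of 5 libraries per group. Saline 1 is highest for type I keratins (42.4 CPM) and saline 5 (2.16 CPM) lies within the ointment range of 0.625 to 4.03 CPM.

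Krtap8-1 and Krtap7-1, glycine- and tyrosine-rich proteins of the cortex, were the most abundant keratin-associated genes with saline. Krtap8-1 was at 2.16, 0.932, 1.85, 0.411 and 0.132 CPM with saline and at 0 in all ointment libraries, so the groups did not overlap and saline was at least 24.5-fold higher. With no filter on low counts it was called lower (edgeR adjusted p 0.0416). Krtap7-1 was at 3.30, 1.06, 1.39, 0.538 and 0 CPM with saline and at 0 with ointment, at least 28.0-fold higher; saline 5 was at 0 as well, and with no filter the edgeR adjusted p was 0.134. Krtap11-1, a high sulfur protein of the cortex, was at 1.76, 0.981, 0.727, 0.253 and 0 CPM with saline and at 0, 0.0747, 0, 0 and 0 CPM with ointment, a pooled ratio of 49.9 (counting interval 19.2 to 185). Saline 5 was again the saline library without a count.

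The highest of the ultra-high sulfur genes was Krtap17-1. It was at 0, 0.273, 0.347, 0.395 and 0.198 CPM with saline and at 0 with ointment, at least 5.50-fold higher over the group. Its library without a count was saline 1, the highest library for most of the other genes. Krtap9-1, of the same class, also had no count there (0, 0.257, 0.298, 0.332 and 0 CPM with saline). Saline 1 had counts for 42 of the 56 genes. Among the rest, Krtap28-13, Krtap3-1, Krtap16-1, Krtap24-1 and Krtap22-2 were at 0 in every ointment library and at least 6.45, 5.72, 5.64, 5.28 and 4.33-fold higher with saline. Of the 33 genes without ointment counts, 19 had more than 12 saline counts; for 1 of these, Krtap2-4, the bound of 0.953 lies below 1, and the other 14 had too few counts for any fold. The Krtap4 family, with counts for all 8 of its genes, had 176 counts with saline and 27 with ointment. These 8 share from 0% (Krtap4-16) to 81.3% (Krtap4-13) of their 50-base stretches with other genes, so counts of single genes among them are uncertain. Of 45 genes that were not tested, the totals ran from 4 to 465 counts, and they summed to 3088 counts with saline and 80 with ointment.

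Krtap3-2 and Krtap3-3, neighbouring high sulfur genes, were the 2 keratin-associated genes that were tested, and neither was called. Krtap3-2 was at 0.782, 0.289, 1.45, 0.206 and 1.26 CPM with saline and at 1.30, 1.29, 1.5, 1.83 and 0.946 CPM with ointment. Its log2 fold change of 0.78 (SE 0.52, 95% interval -0.37 to 1.94, edgeR adjusted p 0.508) was the 1 positive value among the 11, and the groups overlapped. Krtap3-3 was at 0.849, 0.225, 0.430, 0.0791 and 0.0330 CPM with saline and at 0.0852, 0.206, 0.0826, 0.251 and 0.0946 CPM with ointment, also with overlap. The log2 fold change was -1.15 (SE 0.79, edgeR adjusted p 0.527). They share 28.9% and 41.3% of their 50-base stretches with other genes. Krtap3-1, the third of the family named here, had counts in saline alone.

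By position, the 56 genes lie in 6 groups on GRCm38. Chromosome 11 holds 29, the type I hair keratins and 20 Krtap genes, between 99514114 and 100105626, which spans 592 kb. Chromosome 15 holds all 6 type II keratins taken here, between 101431038 and 101550667, and chromosome 16 holds 13 of 25 Krtap rows, between 88610705 and 89571183. Krtap genes on chromosome 16 summed to 8.84, 3.42, 4.61, 1.99 and 0.132 CPM with saline and to 0, 0.149, 0, 0.0717 and 0 CPM with ointment. Krtap genes on chromosome 11 summed to 5.44, 1.67, 5.62, 2.09 and 1.52 CPM with saline and to 1.47, 1.94, 1.59, 2.22 and 1.04 CPM with ointment, where Krtap3-2 alone reached 0.946 to 1.83 CPM. Saline 5 lay within the ointment range on chromosome 16, and saline 2, 4 and 5 did on chromosome 11. The Krtap19 family on chromosome 16 had a count for 1 of its 7 rows.

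**Figure D5:**
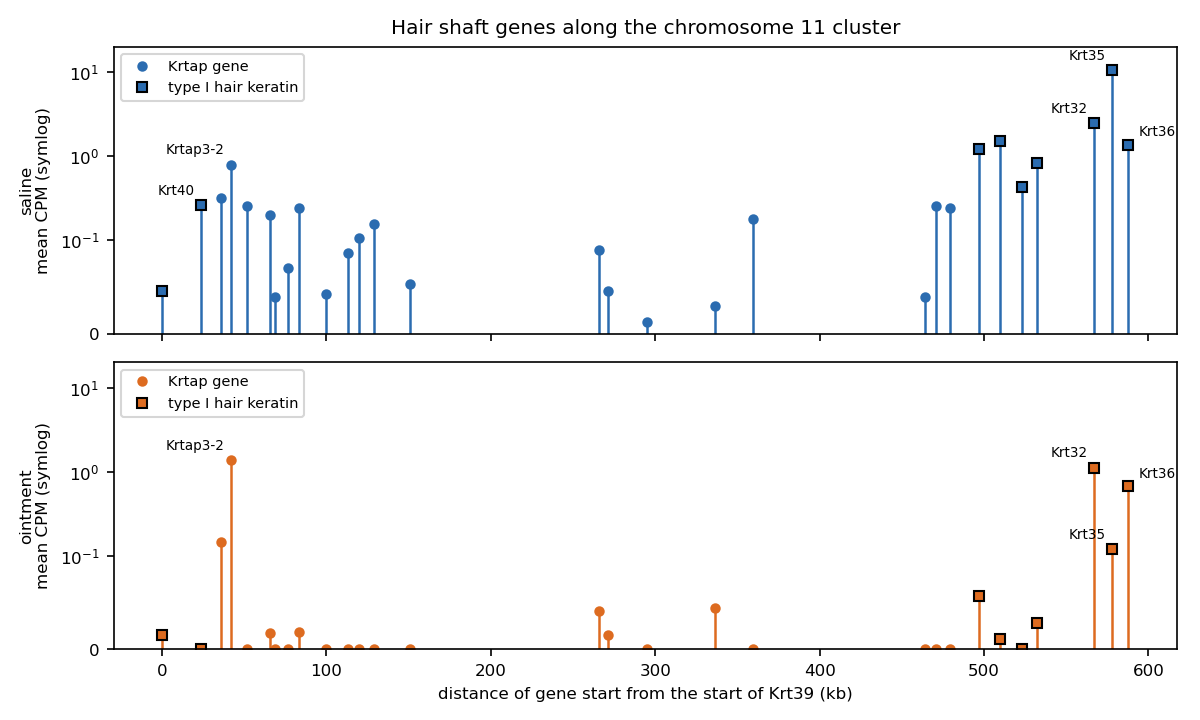
Mean CPM of each shaft gene of the chromosome 11 cluster (vertical axis, logarithmic above 0.1 CPM and linear below it down to 0) against distance from the start of Krt39 in kb, with saline and ointment in separate panels. Krt35 is highest with saline (10.6 CPM), while with ointment Krtap3-2 (1.37 CPM) and Krt32 (1.12 CPM) are the highest points.

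The order of the genes differed between the groups when level was given per kilobase of exon. With saline, Krt35 led at 4.42 CPM per kb, followed by Krtap7-1 (2.02), Krtap8-1 (1.91), Krt84 (1.62) and Krt32 (1.44). With ointment, Krtap3-2 led at 1.33 CPM per kb, followed by Krt32 (0.648), Krt83 (0.628), Krt84 (0.476) and Krt86 (0.442), and Krt35 was in place 9 at 0.0501. Of these named neighbours, Krtap3-2 and Krt32 with ointment differed by more than the SD of either over libraries, and each other pair by less than the larger SD. The 7 genes with counts in all 10 libraries were Krt32, Krt36, Krt83, Krt84, Krt86, Krtap3-2 and Krtap3-3. Chosen after their values were seen, these 7 summed to 15.9, 11.7, 13.7, 9.63 and 6.58 CPM with saline and to 6.75, 6.65, 4.86, 7.29 and 7.38 CPM with ointment. The other 49 summed to 52.2, 21.9, 25.7, 15.8 and 1.64 CPM with saline and to 0.341, 0.897, 0.0495, 1.24 and 0.246 CPM with ointment. The choice of the 7 by their counts in every library fixes much of this contrast, and nothing is read from it.

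Among 20 factors and signals known to act on shaft genes, 19 were tested. Of these, 3 were called lower with ointment and 0 higher, beside 0.983% and 0.692% of all genes tested. The median log2 fold change of the 19 was -0.94, beside -0.00252 for all genes tested. Hoxc13, a homeobox factor that acts directly on hair keratin genes, was at 8.61, 6.22, 8.10, 4.75 and 3.77 CPM with saline and at 1.15, 1.38, 1.02, 1.18 and 1.74 CPM with ointment. The groups did not overlap, and Hoxc13 fell by 2.28 on the log2 scale (SE 0.28, edgeR adjusted p 0.00698), a call that held whichever of the 10 libraries was left out. Lef1, the Wnt pathway factor of the precortex, was at 5.13, 4.66, 3.77, 4.02 and 3.2 CPM with saline and at 1.28, 0.561, 1.12, 1.40 and 0.946 CPM with ointment. It fell by 1.97 (SE 0.28, edgeR adjusted p 0.0143), again without overlap and whichever library was left out. Dlx3, a homeobox factor of matrix and shaft, fell by 1.72 (16.8 ± 7.69 against 5.12 ± 1.42 CPM, n = 5 each, edgeR adjusted p 0.0339), but was called in 2 of the 10 fits that left out a library. Saline 5 was the lowest saline library for all 3, yet above each ointment library.

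Msx2, a homeobox factor of the matrix, was at 7.09, 3.87, 3.57, 3.01 and 2 CPM with saline and at 0.597, 1.44, 0.297, 1.2 and 0.908 CPM with ointment (log2 fold change -2.13, edgeR adjusted p 0.0578). Foxn1, the factor missing in nude mice, whose shafts fail, was at 7.92, 4.16, 5.39, 4.32 and 3.96 CPM with saline and at 2.39, 3.06, 2.91, 2.58 and 3.43 CPM with ointment (log2 fold change -0.84, edgeR adjusted p 0.104). Both had groups that did not overlap and neither passed the threshold.

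Of 12 partners of the shaft, such as desmosomal proteins and modifying enzymes, all 12 were tested. Of these, 1 was called lower and 0 higher, beside 0.983% and 0.692% of all genes tested. The median was -0.71, beside -0.00252 for all genes tested, and 8 of the 12 values were negative. The 12 summed to 196 to 367 CPM with saline and to 183 to 435 CPM with ointment, with overlap. S100a3, a calcium-binding protein of the hair cuticle, was at 18.5, 7.40, 7.90, 5.79 and 1.14 CPM with saline and at 0.362, 0.168, 0.281, 0.663 and 0.606 CPM with ointment. The groups did not overlap and S100a3 fell by 4.29 (SE 0.71, edgeR adjusted p 0.0202), and it was called in 7 of 10 fits that each left out a library, but not with voom (adjusted p 0.1).

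The keratins of the inner root sheath and companion layer, with the sheath protein trichohyalin and its relative, were described beside the shaft genes. Of 11 genes, 9 were tested, 7 were called lower (Krt25, Krt26, Krt27, Krt28, Krt71, Krt73 and Krt75) and 0 higher. The shares of all genes tested were 0.983% lower and 0.692% higher. The median log2 fold change of the 9 was -6.29, or -5.93 with Krt26, which had no ointment count, at its bound. The 11 summed to 740, 381, 195, 238 and 41.6 CPM with saline and to 19.9, 35, 19, 23.5 and 44.1 CPM with ointment. Saline 5 lay within the ointment range here too. Krt71 and Krt27 were called whichever library was left out, and the other 5 in 2 to 9 of the 10 fits. With voom, 6 of the 7 calls were lost: the adjusted p was 0.175 for Krt71, 0.198 for Krt27, 0.234 for Krt25, 0.131 for Krt28, 0.199 for Krt73 and 0.062 for Krt75, and Krt26 kept its call (0.0328). Krt28 was also not called with no filter on low counts.

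Markers of other cells moved with these genes in part. Melanocyte markers, which in hair sit in the bulb, summed to 29.1 to 77.6 CPM with saline and 7.44 to 15.1 with ointment. Of these markers, 4 of 6 were called lower, beside 0.983% of all genes tested. Macrophage markers summed to 1694 to 4070 CPM with saline and 5037 to 7888 with ointment, and 2 of 5 were called higher, beside 0.692% of all genes tested. Keratinocyte markers (16571 to 23645 against 11784 to 20325 CPM), of which 0 of 7 were called, fibroblast markers (35675 to 54214 against 17791 to 58629 CPM) and proliferation markers (448 to 972 against 459 to 735 CPM) overlapped in their sums. Most of the keratinocyte sum was Krt14, a basal keratin. Krt1, a keratin of the layers above, was at 1766 to 3988 CPM with saline and 144 to 917 CPM with ointment, without overlap (log2 fold change -2.03, edgeR adjusted p 0.0564). Its partner Krt10 had a log2 fold change of -1.80 (edgeR adjusted p 0.0778), with overlap. Outer root sheath and bulge markers (3816 to 6568 against 2673 to 7557 CPM) and dermal papilla markers (143 to 221 against 109 to 229 CPM) overlapped in their sums as well. Krt6a and Crabp1 were the largest entries of these sums. In each list 1 gene was called lower, Lhx2 of 7 and Alx4 of 6, beside 0.983% of all genes tested. Groups did not overlap, with saline higher, for 3 of 7 outer root sheath and bulge markers, beside 3.44% of all genes tested. These were Lhx2, Cd34 (333 to 682 against 64.1 to 323 CPM, edgeR adjusted p 0.109) and Sox9 (27.9 to 48.5 against 10.9 to 26.5 CPM, edgeR adjusted p 0.0709). Corin, a dermal papilla marker, had a log2 fold change of -2.87 (edgeR adjusted p 0.0873), with overlap. These single markers were named after their values were seen. Of the whole lists, 6 of 7 outer root sheath and bulge markers had negative fold changes (median log2 value -0.57). So had 4 of 6 dermal papilla markers (median -0.56), and the rest of each list did not. Sebaceous (346 to 2755 against 302 to 3706 CPM), skeletal muscle (1017 to 3648 against 724 to 3945 CPM) and liver markers (0.756 to 4.10 against 1.13 to 2.31 CPM) also overlapped. No listed marker was at 0 in every library. The part that tissue composition, follicle number or hair cycle stage had in the result was not tested.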

How the data were processed

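The authors deposited estimated counts per gene as whole numbers, in a single table without normalization; the excess of multiples of 4 means that they were not taken as reads. RNA was column-extracted and library preparation used the SMARTer mRNA kit; the labels' protocols do not state that strand is kept. The submitters' processing notes name GRCm38 and mm10 as builds. Aligner, counter and annotation: not given in the sources used here. Groups were compared with edgeR 4.0.16 in R 4.3.3 (quasi-likelihood test with robust dispersion, TMM, group as the only term). The filter was filterByExpr (minimum count 10, minimum total 15), two-sided p-values were Benjamini-Hochberg adjusted over 18509 genes, and the threshold was 0.05. The test had been planned for raw counts and was kept, since the values were whole. Levels are TMM-scaled CPM as mean ± SD of 5 libraries, with 95% intervals. The fitting code was tested on simulated data. Positions, exon lengths and translated proteins came from GENCODE mouse release M21 on GRCm38, since the protein table the plan assumed was not used here, and promoters came from RefSeq on GRCm38.p6. Genes named were all hair keratins, members past the threshold, the 4 most abundant tested Krtap genes of each class, called genes of the other lists, and Hoxc13, Lef1, Foxn1 and Msx2. Untested Krtap genes were named beyond that rule after their values were seen. The members, lists and tests were chosen with earlier results of these data known. The alternatives were DESeq2 1.42.0, limma 3.58.1 (voom), 3 other scalings, 2 other filters, no robust dispersion, values divided by 4, a replicate block, and leaving out each library. No column was left without a sample.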

Additional observations from a re-analysis of the deposited data

Results flagged for a closer look

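In a check of each group of 5 libraries for a library far from the others, using log2 CPM (prior count 2), 48 groups were examined, and chance alone flags about 1 in 20. For Krt86, saline 5 was low: its gap to the next library was 0.745 of the group's range, above the critical 0.71, at 0.264 CPM against 0.902 to 1.35 CPM in the other saline libraries. For Krt27, an inner root sheath keratin, saline 5 was low as well, with a ratio of 0.713, at 1.01 CPM against 15.1 to 44.5 CPM.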

How the results depend on the processing

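The number of all genes called was 310 in the main test, 1677 with DESeq2 and 102 to 422 with a library left out. The number of shaft genes called was 1, against 2 with no filter on low counts, 4 with DESeq2 and 0 to 6 with a library left out. With a library left out the filter was applied anew, and 11 to 19 shaft genes were tested, beside 11 in the main test. The number of genes called in the lists of regulators, partners and inner root sheath genes was 11, against 20 with DESeq2, 5 with voom and 4 to 12 with a library left out. For single genes, 386 results kept direction and side of the threshold, 67 lost the call, 8 gained it and 6 changed sign. The sign changes were Krt83, at 0.051 without saline 1, 0.039 without ointment 3 and 0.038 without ointment 4 (range with a library left out -0.56 to 0.051), and Krt86, at 0.084 without saline 1, 0.11 without ointment 1 and 0.19 without ointment 4 (range -0.57 to 0.19); the cause was not tested. With replicate number as a block, 0 genes, 0 shaft genes and 0 listed genes were called, and the adjusted p of Krt84 was 0.141. The labels do not say whether the numbers pair the libraries. Same-numbered libraries correlated at 0.0562, 0.00612, -0.0727, -0.0772 and -0.0592, and 1 of 10 libraries correlated best with its own number. Such correlations cannot exclude pairing by animal or batch, so whether the block belongs in the fit is unknown. Low counts limit what can be said of the 45 untested genes, none of which passed the filter. A low total was not the reason for each. Krt33b, untested, had 465 counts, and Krtap3-3, tested, had 137. The filter asks for about 10 counts per library in as many libraries as a group holds. Krt33b had 174, 103, 127 and 54 counts in saline 1 to 4 but 4 in saline 5, and no more than 3 in any ointment library. Krtap3-3 had 51, 14 and 26 in saline 1 to 3, and 11 and 14 in ointment 2 and 4.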
